A study of Mus musculus with 6 samples.

Results

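The anaphase promoting complex is the ubiquitin ligase that ends M phase, and it was described here through 10 genes: 8 subunits (Anapc1, Anapc2, Anapc4, Anapc5, Anapc10, Cdc16, Cdc23 and Cdc27) and 2 activators (Cdc20 and Fzr1, also called Cdh1). The genes were chosen by name, as every non-control probe whose gene name in the array files is one of the 10, which gave 24 probes among 41174 and 10 genes among 27597 names. The series holds 6 arrays of mouse material of the strain B6C3 F1, each hybridised with Cy3-labelled amplified RNA. They comprise 2 arrays of climacteric blastocysts, 2 of young blastocysts, 1 of climacteric ooplasts and 1 of young ooplasts, where climacteric refers to females near the end of reproductive life. An ooplast is the cytoplasm of an oocyte after removal of its chromosomes. The labels give neither ages in weeks, nor the number of ooplasts or embryos pooled, nor how the blastocysts were made, and the ooplast groups have no replicate.

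The complex marks mitotic and meiotic proteins with ubiquitin for destruction by the proteasome. Its scaffold holds a catalytic core of a cullin and a RING subunit on one side and an arm of tetratricopeptide repeat (TPR) subunits on the other, and the arm binds the activators. Cdc20 activates the complex at the metaphase to anaphase transition, where it directs the loss of securin and B-type cyclins. Fzr1 activates it late in M phase and in interphase, and in mouse oocytes it takes part in the prophase arrest. Mature eggs wait at metaphase of the second meiotic division because an inhibitor, Fbxo43 (Emi2), holds the complex inactive until fertilisation, while cells of a blastocyst pass through ordinary mitoses.

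Promoter windows were taken from RefSeq (GRCm38.p6) and run from 250 bases before to 50 bases after the annotated start, 300 bases in all. A window was found for 9 of the 10 genes, the one without being Cdc23. Those of both activators and of 2 subunits with large differences between the stages are shown, because the activators moved in opposite directions. Capitals mark the cell cycle homology region core TTTGAA and the CCAAT box (written ATTGG where it lies on the other strand), both searched on both strands, as was the variant TTCGAA. The matches shown do not overlap.
Cdc20, chr4:118437294-118437593, minus strand: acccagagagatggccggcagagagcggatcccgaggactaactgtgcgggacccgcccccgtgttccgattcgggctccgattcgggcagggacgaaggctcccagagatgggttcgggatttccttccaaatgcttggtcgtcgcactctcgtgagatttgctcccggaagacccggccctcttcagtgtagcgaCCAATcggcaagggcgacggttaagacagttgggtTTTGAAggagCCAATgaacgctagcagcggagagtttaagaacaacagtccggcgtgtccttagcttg
Fzr1, chr10:81378321-81378620, minus strand: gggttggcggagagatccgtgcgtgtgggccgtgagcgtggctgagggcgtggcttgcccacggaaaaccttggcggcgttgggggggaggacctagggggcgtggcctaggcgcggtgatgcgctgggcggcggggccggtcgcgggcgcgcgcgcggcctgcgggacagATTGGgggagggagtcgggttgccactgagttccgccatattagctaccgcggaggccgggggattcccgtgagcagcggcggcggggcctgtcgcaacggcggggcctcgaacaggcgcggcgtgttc
Cdc27, chr11:104550571-104550870, minus strand: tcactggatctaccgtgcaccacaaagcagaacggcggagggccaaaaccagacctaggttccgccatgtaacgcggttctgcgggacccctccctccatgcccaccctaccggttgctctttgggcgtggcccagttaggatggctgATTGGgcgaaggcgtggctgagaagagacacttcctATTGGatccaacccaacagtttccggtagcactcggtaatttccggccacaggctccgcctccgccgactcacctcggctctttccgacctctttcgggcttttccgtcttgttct
Anapc2, chr2:25272216-25272515, plus strand: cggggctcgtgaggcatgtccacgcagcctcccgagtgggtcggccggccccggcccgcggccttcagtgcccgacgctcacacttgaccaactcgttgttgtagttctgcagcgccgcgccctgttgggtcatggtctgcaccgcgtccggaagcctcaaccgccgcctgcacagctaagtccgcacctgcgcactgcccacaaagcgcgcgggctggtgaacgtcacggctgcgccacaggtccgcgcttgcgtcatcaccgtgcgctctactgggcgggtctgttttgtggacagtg

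TTTGAA, an element known from promoters of genes that are switched on late in the cell cycle, was found in 1 of the 9 genes, Cdc20, where it began 18 bases before the start. Of all 32851 windows of this length, 17.9% held it. The same Cdc20 window held a CCAAT box 53 bases and another 8 bases before the start. TTCGAA was found in 0 of the 9 genes and in 1.56% of all windows. CCAAT, the sequence bound by NF-Y, was found in 5 of the 9 genes (Cdc20, Fzr1, Cdc27, Anapc5 and Anapc10) and in 37.4% of all windows. In Fzr1 it began 79 bases before the start, and in Cdc27 it lay at 102 and 66 bases before the start. The Anapc2 window held none of the 3. These matches describe the windows only, and binding was not measured.

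Levels are log2 of the background-subtracted signal minus the 75th percentile of the same array, so a level of 0 equals that percentile. They were compared between arrays for 1 probe at a time, since brightness also depends on the probe. Of the non-control spots, 49.9% to 57.3% were well above background on the blastocyst arrays, against 42.2% and 42.4% on the ooplast arrays. Levels correlated at 0.962 to 0.983 among the 4 blastocyst arrays, at 0.927 between the ooplast arrays, and at 0.541 to 0.606 across the stages (Pearson r over 10911 genes that are not independent of each other). The labelled material was checked on markers. All 6 trophectoderm markers were higher in blastocysts than in ooplasts and all 10 oocyte markers were lower, and 3 of 4 inner cell mass markers were higher, Pou5f1 being the exception. Zp2, Nlrp5, Zar1 and Mos were above background on no blastocyst array, and Eomes, Nanog and Sox2 on no ooplast array. The filter on dim probes thus set their direction, and in part that of Bmp15, Oosp1 and Cdx2. Markers of other cell types were read as well. Of 8 cumulus and granulosa markers, 5 to 7 were above background on single blastocyst arrays, against 5 in climacteric and 4 in young ooplasts, and their summed linear signal was 4.59 to 7.07 in blastocysts, against 91.7 in climacteric and 434 in young ooplasts. Cyp19a1 and Inha carried most of it. Inha read 2.80 in climacteric and 8.44 in young ooplasts, while Cyp19a1 read 6.22 and 6.30. Fshr, Has2 and Cyp11a1 were not above background in ooplasts, and Foxl2 was so in climacteric ooplasts only. Of the 7 leucocyte markers, 4 to 6 were above background on any 1 array. The 7 summed to 37.7 on the array of climacteric blastocysts replicate 1, mostly Lyz2, and to 2.97 to 3.21 on the other blastocyst arrays. Their sum was 36.6 in climacteric and 7.57 in young ooplasts. Cd68, Fcer1g, Csf1r and Cd52 were above background on both ooplast arrays, and Lyz2 on the climacteric one only. Laptm5 and the pan-leucocyte gene Ptprc were not above background in ooplasts. The part of these cells in the results below was not tested.

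Between the stages, the complex did not move as a block. Of the 10 genes, 3 were higher in blastocysts than in ooplasts (Cdc23, Anapc2 and Fzr1), 3 were lower (Cdc27, Cdc20 and Anapc5), and 4 did not pass the threshold of an adjusted p of 0.05 (limma, Benjamini-Hochberg over 15605 genes). Of all genes tested, 35.5% were higher and 39% lower, 74.5% in all, so a count of 6 of 10 is not above the background. The median difference, blastocyst minus ooplast, was 0.35 over the 10 genes and -0.26 over all genes. In bulk samples, fewer cells of a type and less RNA per cell cannot be told apart. All 10 genes passed the filter on dim probes. Cdc23 passed through blastocysts only, where it is high, so its call was in part set by the filter.

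**Figure D1:**
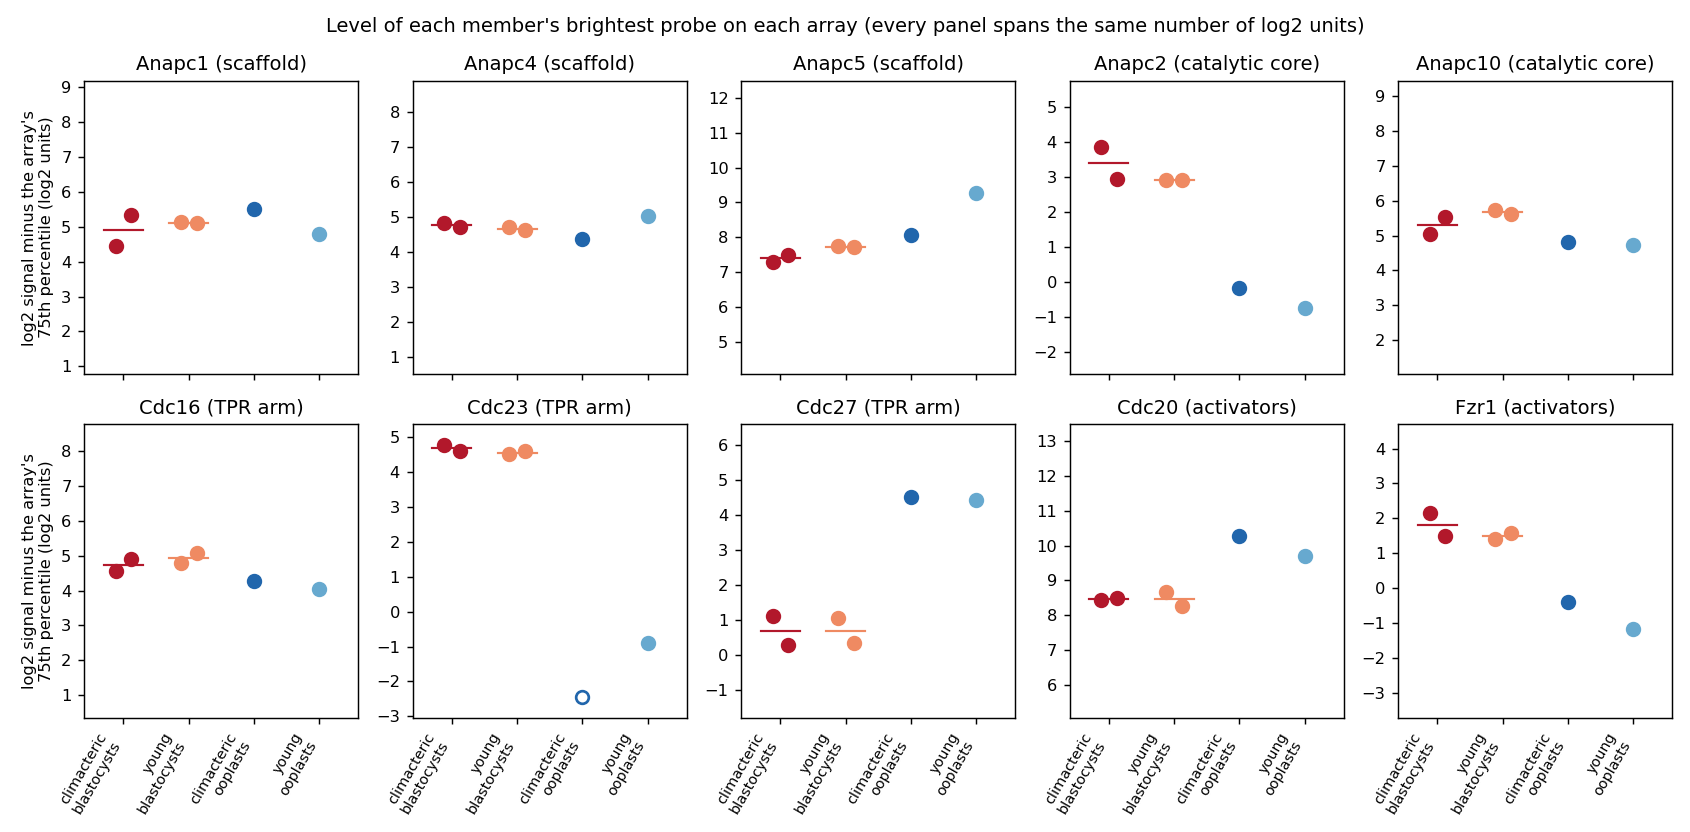
Level of the brightest probe of each of the 10 genes on each array, on a log2 scale relative to the array's 75th percentile; points are arrays, bars are means of 2 arrays, and the open point is not above background. Cdc23, Anapc2 and Fzr1 lie higher on all 4 blastocyst arrays than on either ooplast array, and Cdc27, Cdc20 and Anapc5 lie lower.

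The activators differed in opposite directions. Cdc20, read by 1 probe at chr4:117930863-117930922 (mm8, minus strand), had levels of 8.43 and 8.49 in climacteric blastocysts and 8.67 and 8.27 in young blastocysts, against 10.27 in climacteric and 9.70 in young ooplasts. Both ooplast arrays were above all blastocyst arrays. The means were 8.47 ± 0.17 in blastocysts (SD, n = 4) and 9.98 ± 0.40 in ooplasts (SD, n = 2), and the fitted difference was -1.52 ± 0.28 (SE), which is 2.86-fold lower in blastocysts (limma adjusted p = 0.00281). This call depended on the scaling: with quantile normalization the difference was -0.62 (adjusted p = 0.0565), and with the authors' deposited table it was -0.50 (adjusted p = 0.115).

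Fzr1 was read by 2 probes. The brighter, at chr10:80770211-80770270 (mm8, minus strand), had levels of 2.15 and 1.49 in climacteric blastocysts and 1.40 and 1.58 in young blastocysts, against -0.39 in climacteric and -1.17 in young ooplasts. The groups did not overlap, and Fzr1 was 5.40-fold higher in blastocysts (difference 2.43 ± 0.30, SE, limma adjusted p = 0.000473). The other probe, upstream of the first, was at 1.33 to 1.43 in blastocysts and not above background in either ooplast sample, at -2.52 and -3.10. Its signal was at least 12.3-fold higher in blastocysts, where the bound takes the higher of the dimmest signal above background and the probe's own signal on each ooplast array. This probe entered the fit through blastocysts alone, where it is bright, so its direction was set by the filter and adds no support to the first.

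Within an array, a difference between 2 probes does not depend on a scaling factor for that array. Fzr1 minus Cdc20 was -6.28 and -7.00 in climacteric blastocysts and -7.27 and -6.69 in young blastocysts, against -10.65 in climacteric and -10.87 in young ooplasts. Relative to Cdc20, the Fzr1 signal was thus 15.5-fold higher in blastocysts than in ooplasts, a log2 change of 3.95. All 4 blastocyst arrays lay above both ooplast arrays, and the exact permutation p (two-sided) was 0.0667, the smallest that the 15 arrangements of 4 and 2 arrays allow. The pair was chosen after both genes had separated the stages in opposite directions. This separation and its p were therefore fixed by the choice and add no support. The size of the change says nothing of which gene has more RNA. With quantile normalization, which does not keep within-array differences, the change was 3.08.

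**Figure D2:**
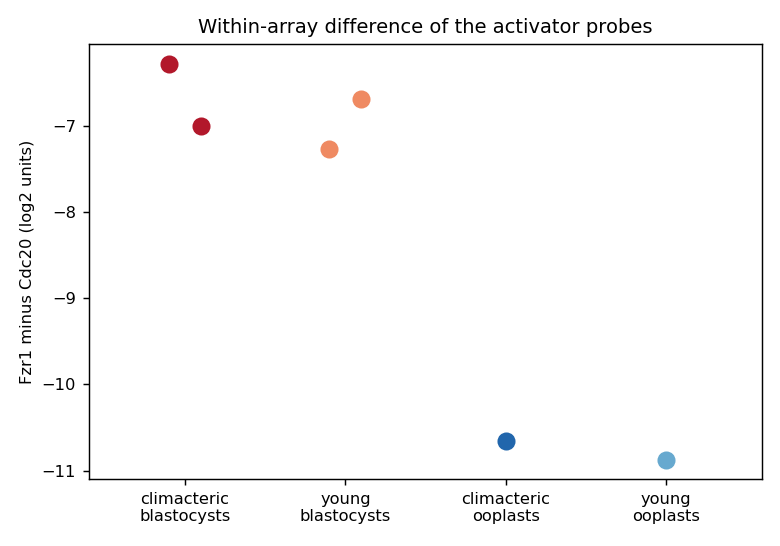
Fzr1 level minus Cdc20 level on each array, in log2 units; points are arrays. The 4 blastocyst arrays lie between -7.27 and -6.28, and the climacteric and young ooplast arrays at -10.65 and -10.87.

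Of the TPR arm, Cdc23 was higher and Cdc27 lower in blastocysts. Cdc23, a TPR subunit, was read by a probe at chr18:34757702-34757761 (mm8, minus strand), with levels of 4.78 and 4.60 in climacteric blastocysts and 4.53 and 4.59 in young blastocysts, against -2.45 in climacteric and -0.89 in young ooplasts. It was above background on the young ooplast array and not on the climacteric one. The difference was 6.29 ± 0.41 (SE, limma adjusted p = 3.36e-05), and it was 5.44 without the climacteric ooplast array, on which the probe was not above background. A second Cdc23 probe, upstream of the first, was not above background on any of the 6 arrays.

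Cdc27, the TPR subunit that binds the tail of the activators, was lower in blastocysts on both probes. Its brighter probe, at chr11:104336910-104338855 (mm8, minus strand), read 1.11 and 0.27 in climacteric blastocysts and 1.05 and 0.33 in young blastocysts, against 4.53 in climacteric and 4.42 in young ooplasts. Cdc27 was 13.8-fold lower in blastocysts on this probe (difference -3.79 ± 0.36, SE, limma adjusted p = 0.000141). Its second probe, nearer the 3′ end at chr11:104319083-104319142, read 0.62 and 0.83 in climacteric blastocysts and 0.94 and 0.67 in young blastocysts, against 2.33 in climacteric and 1.67 in young ooplasts. The second probe also passed the test, with a difference of -1.24 ± 0.30 (SE) when every probe was fitted on its own (adjusted p = 0.0087), so the probes shared the direction and not the size.

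Cdc16, the third TPR subunit, had levels of 4.56 and 4.91 in climacteric blastocysts and 4.78 and 5.08 in young blastocysts, against 4.27 in climacteric and 4.04 in young ooplasts. The groups did not overlap, but the difference of 0.68 ± 0.27 (SE) did not pass the threshold (limma adjusted p = 0.0581). It passed with normexp background correction, at 1.03 (adjusted p = 0.00674), and with only probes above background on all 6 arrays (adjusted p = 0.0465). The normexp correction fits a model to the signal after the local background is subtracted, and an offset of 50 was added. The other 2 Cdc16 probes were above background on 0 and 2 blastocyst arrays and on no ooplast array.

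In the catalytic core, the cullin subunit Anapc2 was higher in blastocysts and Anapc10, which helps to bind substrates, did not pass the threshold. Anapc2 had levels of 3.87 and 2.94 in climacteric blastocysts and 2.92 and 2.93 in young blastocysts, against -0.18 in climacteric and -0.76 in young ooplasts, on a probe at chr2:25107269-25107328 (mm8, plus strand). It was 12.4-fold higher in blastocysts (difference 3.64 ± 0.32, SE, limma adjusted p = 0.000112). The other 2 Anapc2 probes were above background on all blastocyst arrays and on neither ooplast array, with signals at least 2.58-fold and at least 1.38-fold higher in blastocysts (adjusted p = 0.00031 and 0.00282 with every probe on its own). Both entered the fit through blastocysts alone, so their direction was set by the filter and adds no support to the first probe.

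Anapc10 had levels of 5.06 and 5.53 in climacteric blastocysts and 5.72 and 5.61 in young blastocysts, against 4.82 in climacteric and 4.74 in young ooplasts, on a probe at chr8:82671189-82671248 (mm8, plus strand). Its groups did not overlap, and the difference was 0.70 ± 0.27 (SE, limma adjusted p = 0.0549). It passed with normexp background correction (1.06, adjusted p = 0.00503), with only probes above background on all 6 arrays (adjusted p = 0.0436) and without climacteric blastocysts replicate 1 (0.84, adjusted p = 0.0387). Its second probe was above background on 3 blastocyst arrays and on no ooplast array.

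Of the scaffold, Anapc5 was lower in blastocysts on 1 of its 2 probes, and Anapc1 and Anapc4 did not pass the threshold on their brightest probes. Anapc5 had levels of 7.30 and 7.51 in climacteric blastocysts and 7.75 and 7.72 in young blastocysts, against 8.06 in climacteric and 9.26 in young ooplasts, on a probe at chr5:123048350-123048409 (mm8, minus strand). The difference was -1.09 ± 0.29 (SE, limma adjusted p = 0.0147), 2.13-fold lower in blastocysts. Its second probe, at chr5:123048629-123048971, read 4.65 and 4.49 in climacteric blastocysts and 4.61 and 4.11 in young blastocysts, against 4.74 in climacteric and 4.16 in young ooplasts, and differed by 0.02 ± 0.28 (SE, adjusted p = 0.963 with every probe on its own). The Anapc5 call was also lost without the young ooplast array (-0.65, adjusted p = 0.147), with quantile normalization (-0.44, adjusted p = 0.189), with the authors' deposited table (-0.32, adjusted p = 0.305), within slide 1, shared by the ooplasts and the blastocyst replicates numbered 1 (-1.13, adjusted p = 0.0647) and with the mean of both probes (-0.54, adjusted p = 0.0809).

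Anapc1, the largest scaffold subunit, had 5 probes that did not behave alike. The brightest, at chr2:128304202-128304261 (mm8, minus strand), read 4.44 and 5.35 in climacteric blastocysts and 5.13 and 5.11 in young blastocysts, against 5.51 in climacteric and 4.78 in young ooplasts. These values overlapped, with a difference of -0.14 ± 0.37 (SE, limma adjusted p = 0.747). The 2 probes nearest the 3′ end, at chr2:128302222-128302281 and chr2:128302436-128302495, were both lower in blastocysts, by differences of -1.49 and -1.40 (adjusted p = 0.00419 and 0.0106 with every probe on its own). The mean of the 3 measured probes gave -1.01 (adjusted p = 0.0102). The other 2 Anapc1 probes lie further upstream and were above background on 1 and 2 blastocyst arrays and on no ooplast array. Anapc4 had levels of 4.84 and 4.71 in climacteric blastocysts and 4.71 and 4.63 in young blastocysts, against 4.38 in climacteric and 5.02 in young ooplasts. Its difference was 0.02 ± 0.28 (SE, limma adjusted p = 0.941), and its second probe was not above background on any array.

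**Figure D3:**
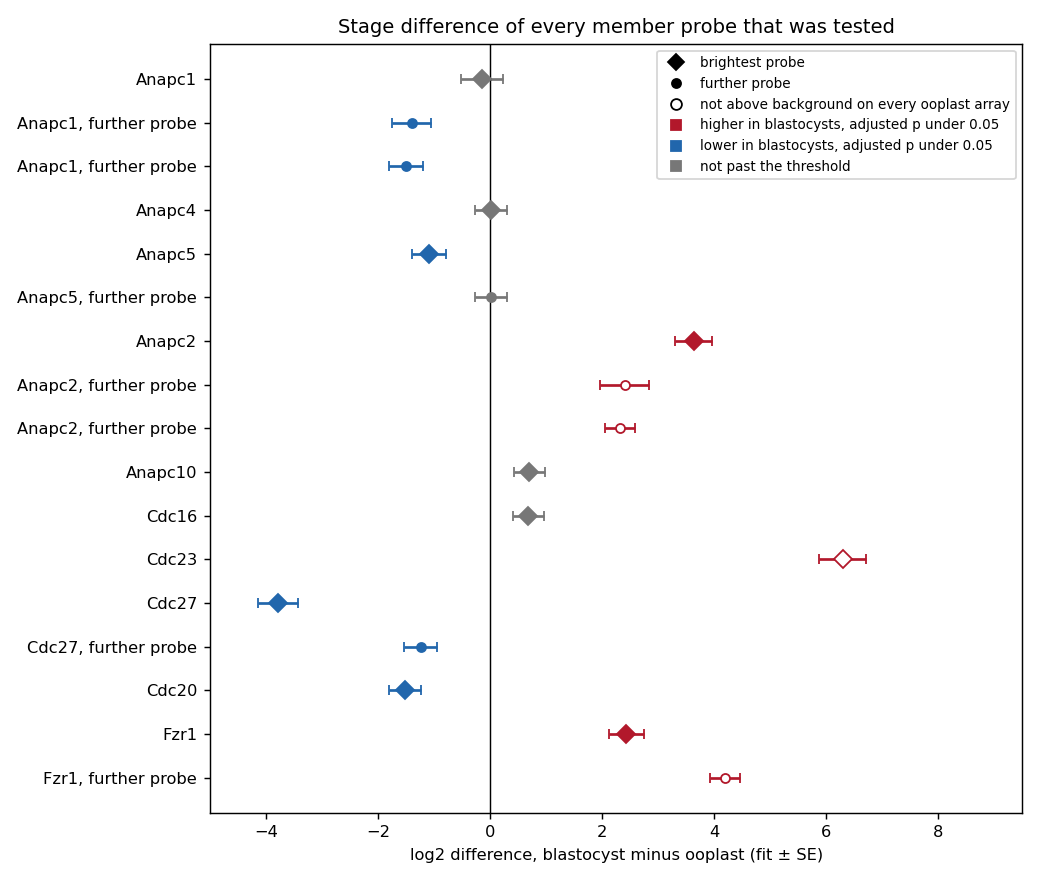
Stage difference (blastocyst minus ooplast, log2, fit ± SE) of every tested probe of the 10 genes, each fitted on its own; diamonds are the brightest probes and circles further ones. Both Cdc27 probes lie to the left, while 1 of 2 Anapc5 probes and 2 of 3 Anapc1 probes pass the threshold; probes drawn open entered the fit through blastocysts alone, so the filter set their direction, for Cdc23 in part.

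The way in which arrays were scaled set part of these values. The median difference over all genes was -0.26 as reported, -0.15 with quantile normalization, -0.14 with the authors' deposited table, -0.46 when scaled on probes above background on all arrays and -0.37 with normexp background correction. Against that median, Cdc20 lay at -1.26 as reported, -0.47 with quantile normalization and -0.36 with the authors' deposited table. Anapc4 lay at 0.28 against the median as reported and at 0.14 with quantile normalization. Anapc2, Cdc23, Cdc27 and Fzr1 kept their direction and passed the threshold under all 5 scalings.

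**Figure D4:**
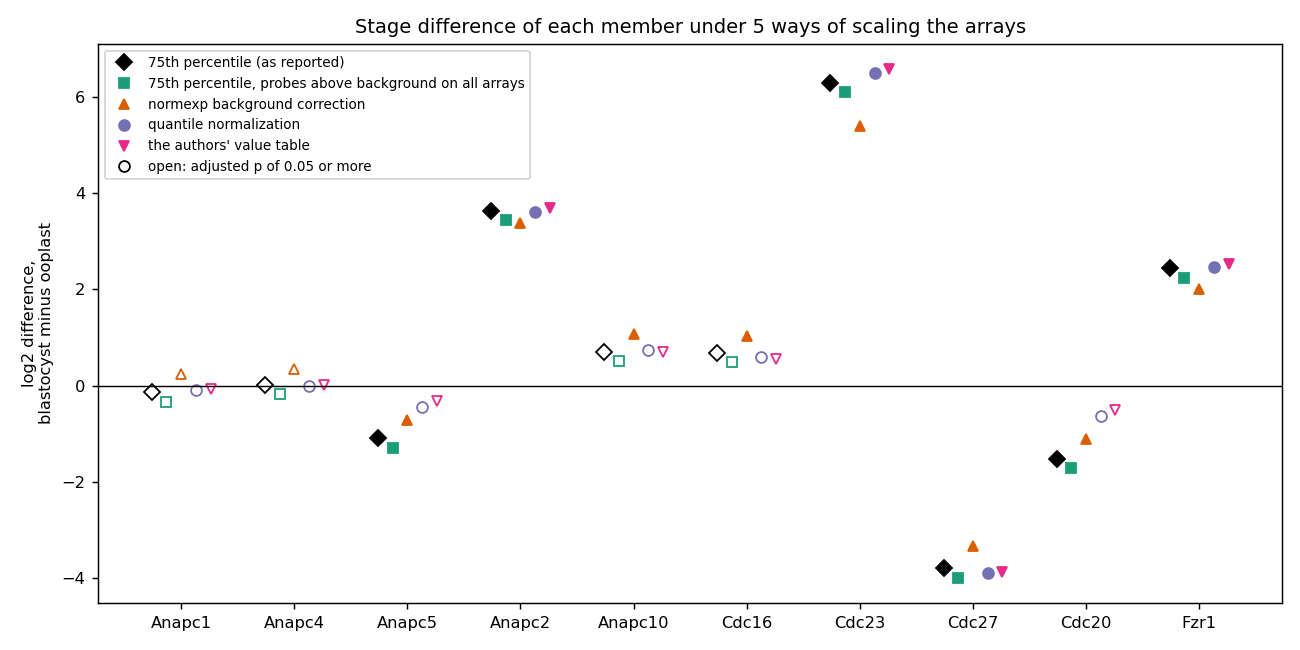
Stage difference (blastocyst minus ooplast, log2) of each of the 10 genes under 5 scalings of the arrays; filled symbols have an adjusted p under 0.05. Cdc23, Anapc2, Fzr1 and Cdc27 are filled throughout, Cdc20 and Anapc5 are open with quantile normalization and the authors' table, and Anapc10 and Cdc16 are filled with normexp correction only.

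The remaining genes of the pathway were as mixed. Of 42 on the array, 41 passed the filter, of which 15 were higher in blastocysts, 15 lower and 11 not past the threshold, with a median difference of 0.10. These shares are near the 35.5% higher and 39% lower of all genes. Among 6 further subunits, Anapc13 (3.59 ± 0.25, adjusted p = 4.24e-05), Anapc15 (1.45), Anapc7 (0.97) and the RING subunit Anapc11 (0.79) were higher, Anapc16 (-1.57) was lower, and Cdc26 (-0.14) did not pass. Anapc13, Anapc16 and Cdc26 are small proteins that bind the TPR arm. Anapc13 had a mean level of 7.42 ± 0.13 in blastocysts (SD, n = 4) and 3.83 ± 0.25 in ooplasts (SD, n = 2), so its groups lay far apart. The second Anapc11 probe differed by 0.14 (adjusted p = 0.685 with every probe on its own). The count of higher subunits was 2 rather than 4 without the climacteric ooplast array or either young blastocyst array and when scaled on probes above background on all arrays, and 1 without the young ooplast array and within slide 1.

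The ubiquitin conjugating (E2) enzymes of the complex split. Ube2c, which starts ubiquitin chains, had levels of 4.85 and 5.10 in climacteric blastocysts and 4.66 and 4.47 in young blastocysts, against 1.55 in climacteric and 0.91 in young ooplasts, a difference of 3.54 ± 0.25 (SE, limma adjusted p = 4.2e-05). Ube2s, which extends them, had levels of 6.69 and 5.54 in climacteric blastocysts and 6.09 and 5.04 in young blastocysts, against 8.86 in climacteric and 9.06 in young ooplasts, a difference of -3.12 ± 0.47 (SE, limma adjusted p = 0.00121). Neither enzyme's groups overlapped, and the second Ube2s probe had a difference of -3.36 (adjusted p = 0.000806 with every probe on its own).

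Of 6 inhibitors, 5 were lower in blastocysts and 1 was higher, beside 39% lower and 35.5% higher among all genes. Fbxo43 had levels of -5.90 and -5.69 in climacteric blastocysts and -5.34 and -5.56 in young blastocysts, none above background, against 2.36 in climacteric and 2.00 in young ooplasts, and was at least 59.3-fold lower in blastocysts (limma adjusted p = 9.28e-06). It entered the fit through ooplasts alone, where it is bright, so its direction was set by the filter and its p adds no support. With only probes above background on all 6 arrays, 5 inhibitors were tested, of which 4 were lower and 1 was higher. Bub1b, a part of the mitotic checkpoint complex that binds Cdc20, had a difference of -3.78 ± 0.35 (SE, adjusted p = 0.000128). Mad2l2, which inhibits Fzr1, differed by -1.90, Fbxo5 (Emi1) by -1.75 and Mad2l1 (Mad2) by -1.36, all past the threshold. Bub3 was higher on its brightest probe (2.17, adjusted p = 0.00233), while a second probe read -0.24 (adjusted p = 0.484 with every probe on its own). Without the climacteric ooplast array the Mad2l1 call was lost.

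Among regulators, substrates and cohesion genes, the 4 highest fitted differences included Trip13 (4.44), an ATPase that takes Mad2 apart from its partners, and Aurkb (3.96), a kinase of the chromosomal passenger complex that was above background on 1 ooplast array. The other two, the kinase Cdk1 and the spindle protein Hmmr, were not above background in ooplasts and were at least 5.28-fold and at least 3.20-fold higher in blastocysts, bounds that give them no rank. The 4 lowest were those of the phosphatase Cdc25a (-4.06), securin Pttg1 (-3.48), separase Espl1 (-3.42) and the phosphatase Cdc14a (-3.18). The stages overlapped for Cdc14a, at 4.98 in climacteric ooplasts and 5.02 in young blastocysts replicate 2. Pttg1, the target of Cdc20 that holds separase inactive, had levels of 6.44 and 6.66 in climacteric blastocysts and 6.44 and 7.15 in young blastocysts, against 9.96 in climacteric and 10.35 in young ooplasts. These 8 genes were chosen among those past the threshold, so their passing was fixed by the choice and is no result. Their limma adjusted p ran from 2.17e-05 (Trip13) to 0.00306 (Cdc14a). Cdk1, Hmmr and Aurkb passed the filter through blastocysts only and Espl1 through ooplasts only, where they are high. The filter thus set the direction of Cdk1 and Hmmr, and in part that of Aurkb and Espl1.

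**Figure D5:**
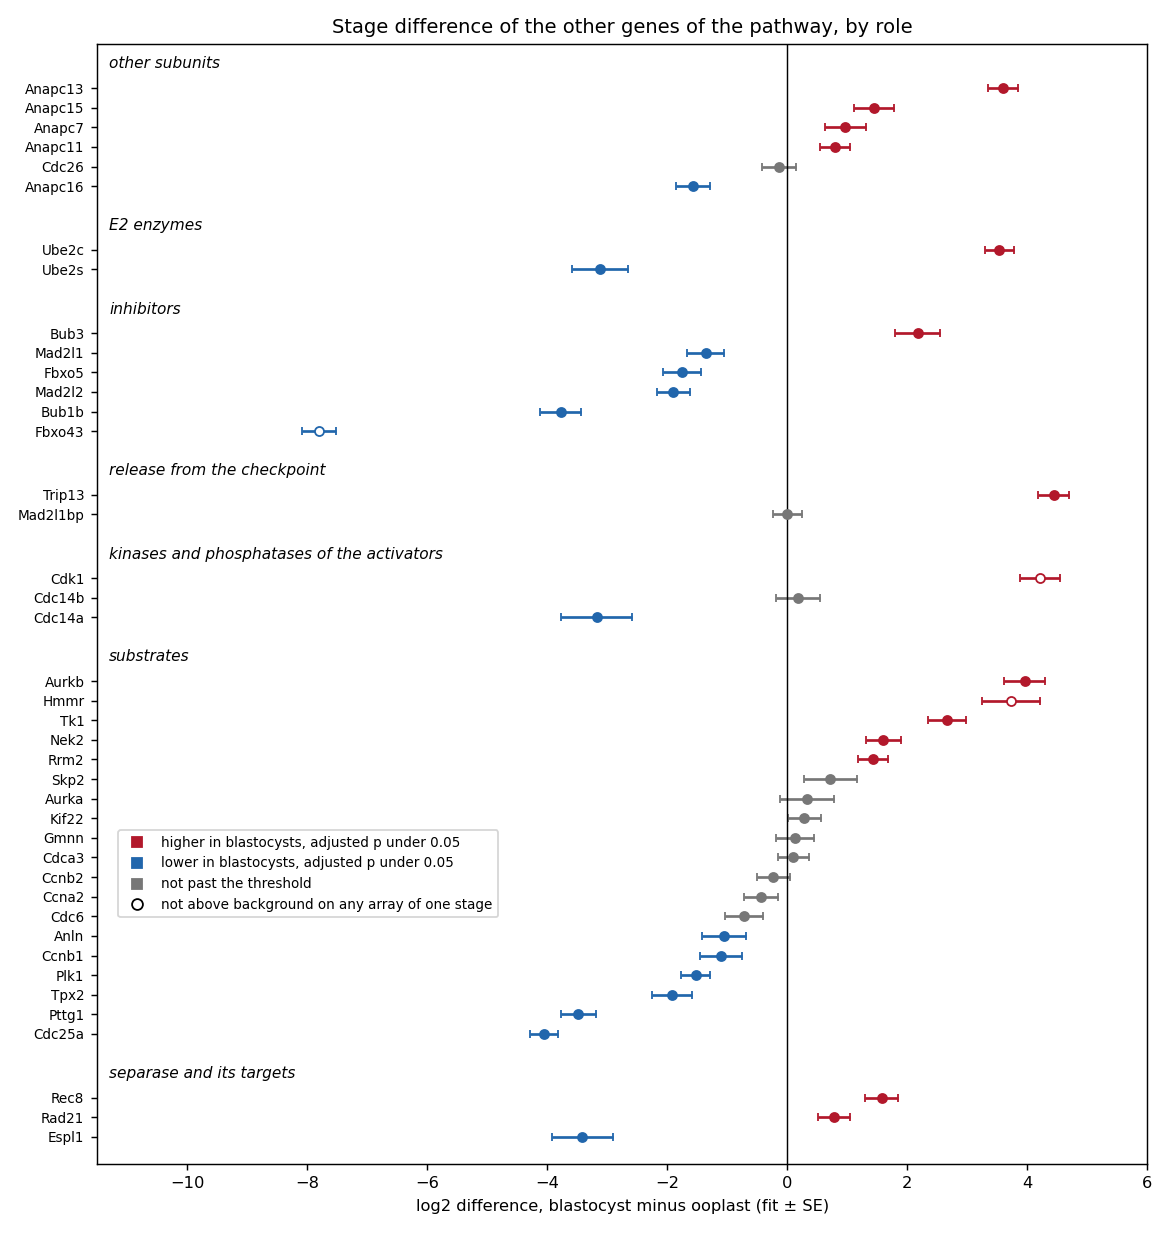
Stage difference (blastocyst minus ooplast, log2, fit ± SE) of the 41 other pathway genes tested, grouped by role. Of the inhibitors 5 of 6 lie to the left, of the further subunits 4 of 6 lie to the right past the threshold, and the E2 enzymes Ube2c and Ube2s lie on opposite sides. Open points were not above background on any array of one stage, so the filter set their direction.

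Age in blastocysts was compared over 2 climacteric and 2 young arrays. None of the 10 genes passed the threshold (adjusted p = 0.9999 for each, limma), as for the whole array, where 0 of 15971 genes (0%) passed and 864 (5.41%) had an unadjusted p under 0.05, 0 of them among the 10. The differences, climacteric minus young, ran from -0.37 (Anapc10) to 0.48 (Anapc2). For Cdc20 the difference was -0.01 with a 95% interval of -0.78 to 0.75, and for Fzr1 it was 0.33 with an interval of -0.55 to 1.21. For Cdc27 it was -0.01 (-1.12 to 1.11), and for Cdc23 0.13 (-0.58 to 0.84). The 4 arrays were compatible with any difference inside these intervals, which are not adjusted over genes. The counts above use 1 probe for each gene. The second Anapc10 probe, above background on 3 blastocyst arrays and fitted on its own, had the lowest value of any tested probe of the 10 genes. Its difference was -1.14 (limma, unadjusted p = 0.0306, adjusted p = 0.811). None of the 40 other pathway genes tested here passed either. The largest difference among these 40 was that of Skp2, at 1.87 (limma, unadjusted p = 0.000852, adjusted p = 0.464). Skp2 read 1.01 and 1.04 in climacteric blastocysts, against -0.86 and -0.84 in young blastocysts.

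In ooplasts, with 1 array for each age, values were compared without a test. Of the 9 genes above background on both arrays, 1 was at least 2-fold apart, against 17.2% of 12292 genes. This was Anapc5, at 8.06 in climacteric and 9.26 in young ooplasts, 2.30-fold lower in climacteric ooplasts, while its second probe was 0.58 higher on the log2 scale, at 4.74 in climacteric and 4.16 in young ooplasts. With quantile normalization, the authors' deposited table or the mean of a gene's probes, none of the 9 was 2-fold apart. Cdc23 was not above background in climacteric ooplasts and was at least 2.48-fold lower there than in young ooplasts. The differences of the other 8, climacteric minus young, ran from -0.64 (Anapc4) to 0.78 (Fzr1), beside a median of 0.15 over all genes and 0.23 over the 9.

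A difference of 2-fold or more was seen for 5 of the 38 other pathway genes measured in ooplasts of both ages. Among all 12292 genes measured in both, 17.2% were this far apart, so this count is not above the background. Bub1b read 5.45 in climacteric and 3.95 in young ooplasts, Tpx2, a spindle assembly factor, 6.48 and 5.40, and Rec8, the meiotic cohesin subunit cut by separase, 1.59 and 0.57. Aurka, a spindle pole kinase, read 5.93 in climacteric and 8.02 in young ooplasts, and Cdc14a 4.98 and 7.70. The first 3 were higher and the last 2 lower in climacteric ooplasts, with no replicate to set them against. Aurkb, above background in climacteric ooplasts only, was at least 2.04-fold higher there than in young ooplasts. The second Rec8 probe read 0.35 higher in climacteric ooplasts, and its stage difference of -0.81 was opposite to the 1.57 of the first.

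Whether the age difference itself differed between the stages was tested with an interaction term, which assumes that the single ooplast arrays vary as the blastocyst replicates do. Of 15605 genes 133 passed (0.852%), and none of the 10 did. Cdc23, whose climacteric ooplast value was not above background, was the 1 gene among them with an unadjusted p under 0.05. Its difference of differences was -1.69 ± 0.49 (SE, limma adjusted p = 0.396). No other pathway gene passed.

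The profiles most like those of the activators were sought among 10911 genes above background on all 6 arrays, by the root mean square difference of levels centred on each gene's own mean. Nearest to Cdc20 were an entry named LOC213481 (0.0494 log2 units), an entry with no gene symbol (0.0568) and Fam20a (0.0665). Nearest to Fzr1 were an entry with no gene symbol (0.115), Slc25a39 (0.166) and AI837181 (0.173). These rest on 6 arrays that fall into 2 stages, so any gene with a like stage difference and small scatter comes near, and no test was made.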

How the data were processed

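Per the file headers, the authors read spot intensity on 1-colour Agilent arrays whose probes are placed on mm8. The submitters' processing notes name Agilent Feature Extraction 9.5. The deposited processed signal had its background removed by spatial detrending, with no scaling across arrays. The authors' deposited table holds log2 values and equals a quantile normalization of that signal on all 6 arrays (each column's median 6.25). Its direction, scale and centring are therefore known. That normalization averages linear signals over all spots, whereas the quantile normalization run here averages log2 signals over non-control spots. The deposited flags that mark a spot as well above background, saturated or an outlier, and the other columns used, were taken as they stand.

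Here, log2 of the processed signal was centred on the 75th percentile of the non-control spots of its array. Spots of a probe were averaged without flagged outliers. The brightest probe that was well above background throughout 1 or more of the groups compared stood for a gene. Gene names followed RefSeq (24375 probes by accession, 6301 by current symbol, 2426 by synonym, 8072 with the file's name). Exon and UTR positions are left out because no mm8 annotation was used here. Tests were lmFit and eBayes of limma 3.58.1 in R 4.3.3, two-sided, with Benjamini-Hochberg adjustment over all genes and a threshold of 0.05, with age as a term for stage over 6 arrays and 4 arrays for age in blastocysts. Bounds of the form at least N-fold set the bright group's mean against, on each dim array, the higher of the lowest signal well above background and the probe's own. The fits were also run on simulated data with known large changes and independent noise. That run did not cover the filter or small differences, so it does not vouch for the calls made here.

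The genes, lists and comparisons were chosen with earlier results of these data known. Named pathway genes were all further subunits, E2 enzymes and inhibitors. Of the rest, the 4 largest fitted differences past the threshold by stage in each direction were named. Those at least 2-fold apart in ooplasts and the largest age difference in blastocysts were named as well. The number of arrays limits the precision. Replicates are called biological in the labels, which name no animals, and p-values therefore reflect only how much these samples vary. The ooplast arrays shared slide 1 with the blastocyst replicates numbered 1, and slide 2 held those numbered 2, so a slide block is also a replicate block. Deviations of same-numbered blastocyst arrays correlated at 0.17 over 2 pairs, too few to show pairing. Alternatives were other scalings, filters and probe rules, the block, slide 1 alone and each array left out.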

Additional observations from a re-analysis of the deposited data

Results flagged for a closer look

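Over the 4 blastocyst arrays as 1 set, 1 of the 10 genes had an array far from the others. Anapc2 had a level of 3.87 on the array of climacteric blastocysts replicate 1, against 2.92 to 2.94 on the other 3 blastocyst arrays, a gap of 0.973 of the whole range. Chance puts about 1 in 20 such sets of 4 beyond the limit used, and the 4 arrays mix both ages. The other 2 Anapc2 probes did not stand apart on that array, at -0.91 (all blastocyst arrays -1.12 to -0.67) and -1.53 (-2.67 to -1.46). Without this array the stage difference of Anapc2 was 3.44 (limma adjusted p = 0.000418). The same array held the leucocyte marker sum of 37.7, mostly Lyz2, and the part of such cells in the value was not tested.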

How the results depend on the processing

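Under all alternatives run, Anapc2, Fzr1, Cdc23 and Cdc27 kept their direction and passed the threshold. Anapc2 ran from 2.79 to 3.86, Fzr1 from 2.01 to 3.31 and Cdc27 from -3.98 to -2.51. Cdc23 ran from 5.40 to 7.14, with no value where probes had to be above background on all 6 arrays. These ranges use a gene's brightest probe or the mean of its probes. Further probes fitted on their own fell outside them, at -1.24 for Cdc27, 2.32 and 2.40 for Anapc2 and 4.19 for Fzr1. Those of Anapc2 and Fzr1 were not above background in ooplasts. The number of the 10 genes called by stage was 4 to 8 across alternatives, and 5 to 7 when single arrays were left out. With no filter on dim probes 19945 genes passed by stage, since 27597 were tested. The count of genes 2-fold apart in ooplasts was 1352 with normexp and 4631 with no filter. Of the 10 genes, 0 were 2-fold apart there with quantile normalization, the authors' deposited table or the mean of a gene's probes, and 2 with no filter. The count with an age effect differing between stages was 37 with quantile normalization, 0 with the authors' deposited table and 0 to 164 with single blastocyst arrays left out (0 without either climacteric array, 88 without young replicate 1), and none of the 10 passed under any alternative. For age in blastocysts 0 to 1 genes passed with single arrays left out. Fzr1 minus Cdc20 changed by 3.08 with quantile normalization, 3.11 with normexp and 3.04 with the authors' deposited table, alternatives chosen after seeing the data. With the replicate block, 6 of the 10 genes and 10771 of all genes passed by stage, 0 by age in blastocysts and 173 for the difference between stages, and the block changed no call among the 10. Where no cause is given above, the cause was not tested. Without an ooplast array, or within slide 1, the interaction could not be fitted. With 2 ooplast arrays and 4 blastocyst arrays, dim probes in ooplasts (Cdc23, Anapc2, Fzr1) limit how well fold sizes are known.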
